A study of Mus musculus with 2 samples.

Results

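The genes described here are Trp53, which encodes p53, its regulators Mdm2 and Mdm4, and its target genes Ccng1, Sesn1, Zmat3, Trp53inp1, Perp, Phlda3 and Aen. They were chosen by name, and all 10 were found among the 43629 genes of the count files. The data come from Dicer_KO mouse embryonic stem cells (mESCs), in which part of Dicer1, the gene of the RNase III enzyme that makes mature miRNAs, was deleted with paired CRISPR/Cas9 guides. The deleted region covers the second RNase III domain alone or extends to it from the PAZ domain. PolyA RNA of these cells, derived from the E14TG2a line on a 129/Ola background and was sequenced in 2 libraries. Replicate 1 was taken at passage 7, whereas replicate 2 came from passage 4. The study kept its mESCs in serum with LIF, and the labels give no medium for these libraries. Both libraries carry the same genotype label. The study made 2 independent clonal lines with different deletions, and the labels do not tell which line a library comes from, so the line, the passage and the library cannot be told apart. Wild-type libraries were not analysed here. The data therefore show the levels of the p53 genes without Dicer and how far they differ between the 2 libraries, and they hold no comparison with cells that have Dicer.

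p53 is a transcription factor that is stabilised by DNA damage and other stresses and binds to response elements near its target genes. These targets halt the cell cycle, repair DNA, limit growth or favour apoptosis. Mdm2 is an E3 ubiquitin ligase that marks p53 for degradation and is itself a p53 target, so that both form a feedback loop, and Mdm4 is its relative, which binds p53 and blocks its activity. In mESCs, p53 is known to be abundant, and miRNAs act on this network in both directions, since p53 induces some of them and others target its mRNAs.

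Replicate 1 held 41710122 and replicate 2 held 41566184 counts on genes, so that 3 counts correspond to 0.0719 and 0.0722 CPM, the counts of a gene per M counts of its library. The 6 pluripotency markers Pou5f1, Sox2, Nanog, Esrrb, Zfp42 and Klf4 had between 2562 and 47522 counts, with summed levels of 3820 and 3300 CPM. The 6 markers of differentiated lineages summed to 5.01 and 6.38 CPM, mostly from Pax6, and Cdx2, Foxa2 and T had between 1 and 6 counts. Of the 5 fibroblast markers, which would mark feeder cells, Postn was at 0 counts in both libraries, and the sums of 22.3 and 17.5 CPM came mainly from Thy1. Dicer1 itself had 1343 and 1510 counts. This number covers the whole gene, of which only part was deleted, and has no wild-type value beside it, so it does not check the deletion. The study itself checked both lines by PCR on genomic DNA and found no DICER protein by immunoblot. From its RNA sequencing it also reported a loss of Dicer mRNA, which cannot be examined here without wild-type libraries. In bulk RNA, fewer cells of a type and less RNA per cell cannot be told apart.

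Of the 10 genes, 7 had promoter windows in RefSeq (GRCm38.p6), each from 250 bases before to 50 bases after an annotated start, and Zmat3, Trp53inp1 and Perp had none. These windows were searched for a pair of p53 consensus half-sites with 0 or 1 base between them and an intact CNNG core in each, on a motif that reads the same on both strands. With at most 3 mismatches in the pair, such a site was found in 4 of the 7 genes, against 884 of all 27018 genes with a window. By window, this was 5 of 10 against 2.83% of all 32841, with the same Aen site counted in both Aen windows, which overlap. Of 23 other p53 targets with a window, 5 had such a site. The sites are shown as near-matches to the consensus that p53 is known to bind, with both half-sites in capitals.
Ccng1: ggccAGACCTGCCCGGGCAAGCCTtggc
Aen: agccGGGCTTGTCCGGGCAAGGAGcttc
Sesn1: cttcAAGCTTGTTTTTGCTGGCCTggtc
Trp53: ggaaGGACTTGCCCTTACTTGTTAtggc
The Ccng1 site (chr11:40755458-40755485, minus strand) had 1 mismatch and began 195 bases before the start. Only 0.11% of all windows held a pair this close to the consensus. The Aen site (chr7:78895933-78895960, plus strand) had 3 mismatches and lies 121 bases before the second of its annotated starts and just after the first, and the Sesn1 site (chr10:41887262-41887289, plus strand) had 3 and lies 173 bases before a downstream start. The site in front of Trp53 (chr11:69580280-69580307, plus strand) also had 3 mismatches, at 75 bases before the start. In each of these 4 genes 1 of the half-sites was exact. An exact half-site was also present in the Mdm2 window, and in 8.36% of all windows. The windows of Mdm2, Mdm4 and Phlda3 held no pair with at most 3 mismatches, which says only that these letters are not in the windows searched. Binding of p53 was not measured.

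The 3′ UTRs of the members were searched for matches to the seeds of miR-295 and miR-16, the former a miRNA abundant in mESCs and the latter a widely expressed one. Their mature sequences are shown with the seed, bases 2 to 8, in capitals.
miR-295-3p: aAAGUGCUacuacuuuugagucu
miR-16-5p: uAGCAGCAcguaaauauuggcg
Sites for miR-295, of the miR-290 family, read AGCACTT in the DNA and were found once each in Ccng1, Zmat3 and Trp53inp1, 3 of 10 genes, against 14.6% of 20971 genes with a 3′ UTR.
Ccng1: gttactgaaatAGCACTTctttaaattac
Zmat3: tgggtttccgaAGCACTTggaagttccct
Trp53inp1: atgaacagcacAGCACTTtgccaaaaaac
These sites lie on GRCm38 at chr11:40750542-40750570 (minus strand), chr3:32339094-32339122 (minus strand) and chr4:11174215-11174243 (plus strand), each inside the 3′ UTR. Sites for miR-16 (TGCTGCT) were found in Ccng1, Sesn1, Zmat3 and Phlda3, 4 of 10 genes, against 20.1% of all genes. The 3′ UTRs of the members were longer, with a median of 1825 bases against 954 over all genes, and longer UTRs offer more room for a match. Trp53, Mdm2, Mdm4, Perp and Aen had a match to neither seed. A seed match is a description of the sequence, and without wild-type libraries the data do not show whether any of these mRNAs responded to the loss of miRNAs.

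All 10 genes were expressed well above the counting floor in both libraries, from 1026 counts (Sesn1, replicate 1) to 26596 (Mdm4, replicate 1). Their summed share of a library was 0.216% in replicate 1 and 0.221% in replicate 2. To compare genes, counts were divided by the exonic length of each gene in the GENCODE M21 annotation and scaled to the same sum in each library (TPM, transcripts per M transcripts). On this scale, the levels ranged from 19.2 TPM for Sesn1 to 355 TPM for Ccng1, with a median of 72.3 over the 10 genes, against 13.0 over all genes whose mean count was 10 or more. These 10 genes were thus each above the median of the genes tested. The wider lists of p53 genes described below had lower medians, 32.8 TPM for 28 other targets and 29.1 TPM for 21 family and modifier genes.

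Trp53 (ENSMUSG00000059552) is located on chromosome 11 (GRCm38, 69580359 to 69591873, plus strand). In replicate 1 its 14679 counts gave 352 CPM, with a 95% Wilson interval from 346 to 358, whereas the 15693 counts of replicate 2 gave 378 CPM (372 to 383). Intervals of this kind cover counting error only. Per length, this was 254 TPM and 284 TPM, or 269 ± 20.8 TPM (SD, n = 2), higher than 97.2% of the 17637 genes that reached a mean count of 10 and had a known length. These values used the 4045 nt of all its exons. Its longest transcript, of 3275 nt, gave 270 TPM and its longest coding transcript, of 1867 nt, gave 448 TPM, both with that kind of length taken for every gene. Trp53-ps, a processed pseudogene on chromosome 17, had only 4 and 2 counts. Wrap53, which lies head to head with Trp53 on the other strand, had 989 and 1077 counts, and the genes do not overlap in this annotation.

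The relatives of p53 were far lower. Trp73, which encodes p73, had 380 and 469 counts, so that the TPM of Trp53 was 52.8 and 45.8 times that of Trp73. Trp63, which encodes the epithelial factor p63, had only 46 and 23 counts (0.292 ± 0.13 TPM, n = 2). Of the p53 family, Trp53 was the one expressed at a high level in both libraries.

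Both regulators were abundant, and Mdm4 exceeded Mdm2. Mdm4 (ENSMUSG00000054387, chromosome 1, 132959484 to 133030561, minus strand) had the most counts of the 10 genes, 26596 in replicate 1 and 24419 in replicate 2. Its level was 126 TPM and 121 TPM, with a spread of 3.7 TPM (SD, n = 2). Mdm2 (ENSMUSG00000020184, chromosome 10, 117688875 to 117710758, minus strand) had 4827 and 5700 counts, which gave 66.5 TPM and 82.0 TPM.

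The ratio of Mdm4 to Mdm2 per length was 1.89 in replicate 1 and 1.47 in replicate 2. It was 2.44 and 1.90 with the longest coding transcripts, so that Mdm4 was the higher of the pair in both libraries with either length. A ratio within a library is free of the scaling between libraries. Per length of all exons, Mdm2 stood at 0.262 and 0.289 of Trp53, and Mdm4 at 0.495 and 0.425. These shares rest on the length used. With the longest transcripts they were 0.342 and 0.378 for Mdm2, and 0.835 and 0.717 for Mdm4. With the longest coding transcripts they were 0.195 and 0.216 for Mdm2, and 0.476 and 0.409 for Mdm4. The processed pseudogenes Mdm4-ps, with 93 and 98 counts, and Gm29257, which lies within the bounds of Mdm4 on the other strand, with 69 and 41 counts, were small beside the counts of Mdm4.

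**Figure D1:**
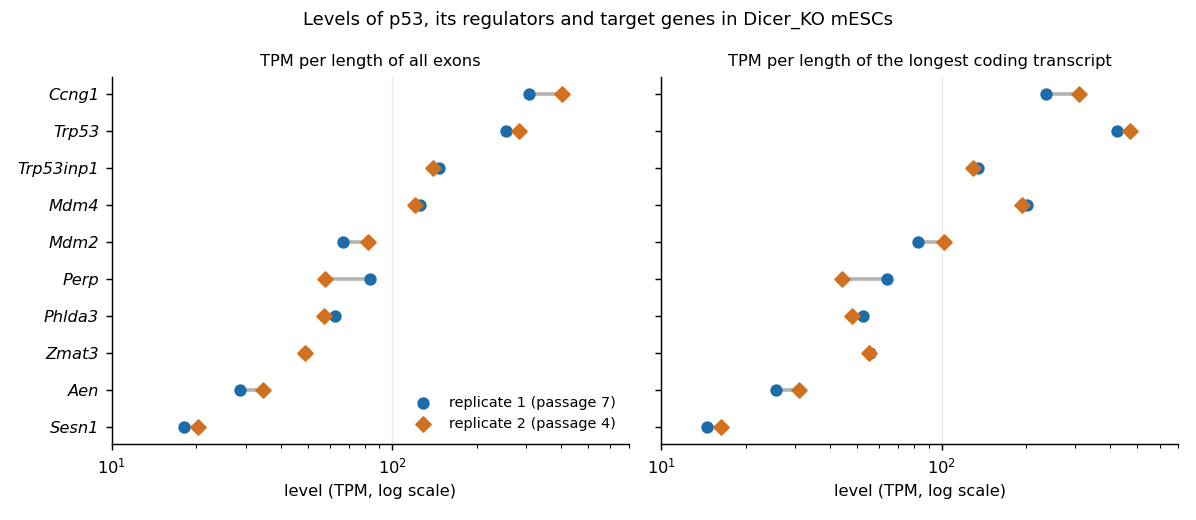
Level of each of the 10 genes (horizontal axis, TPM on a log scale) in replicate 1 (circles) and replicate 2 (diamonds) of Dicer_KO mESCs, per length of all annotated exons (left) and of the longest coding transcript (right), with grey lines joining the libraries. Ccng1 is highest on the left at 355 TPM and Trp53 on the right at 448 TPM, and Sesn1 is lowest in both.

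Among the targets, Ccng1 was the most abundant. It encodes cyclin G1, which recruits the phosphatase PP2A and feeds back on Mdm2. Ccng1 (ENSMUSG00000020326, chromosome 11, 40748552 to 40755311, minus strand) had 15396 counts in replicate 1 and 19327 in replicate 2, or 307 TPM and 402 TPM. The ranges of Ccng1 and Trp53 did not overlap on this scale. With the longest transcripts Ccng1 had the higher mean, at 288 against 270 TPM. The libraries then differed in the order, since Ccng1 stood at 0.978 of Trp53 in replicate 1 and at 1.15 in replicate 2. With the longest coding transcripts Trp53 was higher, at 448 against 273 TPM, so the order of these genes rests on the length used. Trp53inp1, a stress-induced nuclear protein with roles in autophagy and apoptosis, had 13560 and 12386 counts (143 ± 4.83 TPM, n = 2).

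The other targets were lower. Perp, which encodes a membrane protein of desmosomes and of p53-driven apoptosis, had 2319 counts in replicate 1 and 1532 in replicate 2, or 83.2 TPM and 57.4 TPM. Phlda3, a short protein with a PH domain that restrains Akt, had 1391 and 1220 counts (59.9 ± 3.73 TPM, n = 2). Zmat3, an RNA-binding zinc finger protein, had 7997 and 7653 counts over a long transcript, or 49.0 TPM and 48.9 TPM, the smallest relative spread of the 10 genes on the TPM scale.

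Aen and Sesn1 closed the order. Aen, which encodes a nuclease that enhances apoptosis, had 2367 and 2737 counts (31.5 ± 4.18 TPM, n = 2). Sesn1, which encodes a sestrin that curbs mTORC1 under stress, had 1026 and 1105 counts (19.2 ± 1.59 TPM, n = 2), still above 58.4% of the genes ranked. Its relative Sesn2, also a p53 target, was far higher in both libraries, at 9.40 and 11.2 times the TPM of Sesn1.

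In the order Ccng1, Trp53, Trp53inp1, Mdm4, Mdm2, Perp, Phlda3, Zmat3, Aen and Sesn1, the values of neighbours did not overlap between libraries except for Mdm2 with Perp and Perp with Phlda3. These pairs do not differ beyond the spread of the 2 libraries. Within a library, Perp was above Phlda3 in both, at 83.2 against 62.5 TPM in replicate 1 and 57.4 against 57.2 TPM in replicate 2. Mdm2 was above Perp in replicate 2 only. With the longest coding transcripts, Trp53 moved above Ccng1, Mdm4 above Trp53inp1 and Zmat3, at 55.2 TPM, above Phlda3. The mean of Zmat3 was then also above that of Perp, at 54.1 TPM. These 2 genes overlapped, since Perp had 64.0 TPM in replicate 1 and 44.1 TPM in replicate 2.

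**Figure D2:**
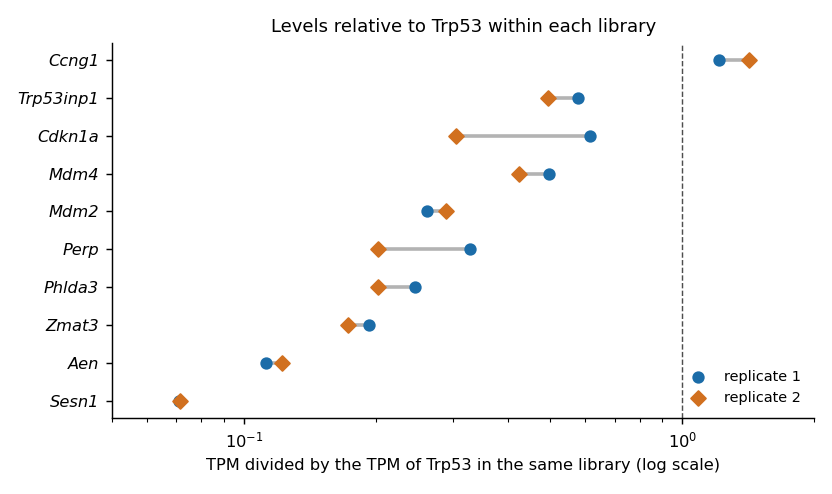
TPM of 9 members and of Cdkn1a divided by the TPM of Trp53 in the same library (horizontal axis, log scale; dashed line, equal to Trp53), for replicate 1 (circles) and replicate 2 (diamonds). TPM was taken per length of all annotated exons, and levels relative to Trp53 shift with the length used. Sesn1 stands at 0.071 and 0.0715 of Trp53 in the 2 libraries, and Cdkn1a and Perp have the widest gaps between libraries.

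The libraries were then compared for these genes. Each gene was given a log2 ratio, replicate 1 over replicate 2, with TMM scaling, a pseudocount of 1 and a 95% exact (Clopper-Pearson) interval for the split of its counts. With 1 library at each passage this ratio has no replicate check, and no test was made. None of the 10 genes was beyond 1.5-fold, whereas 39.6% of the 17788 genes at a mean count of 10 or more were. At 2-fold the share was 21.4% of all genes, 14.2% higher and 7.14% lower in replicate 1, and again no member. All 10 had a mean above 1000 counts, and of the 7401 genes in that range 22.3% were beyond 1.5-fold. A group of 10 genes is too small to set it apart from that share. The median size of the log2 ratio, without its sign, was 0.22 over the 10 genes and 0.45 over all genes. The latter value includes genes with far lower counts than the members.

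Perp was the member with the highest ratio. It was 1.39-fold higher in replicate 1, with a log2 ratio of 0.48 (interval 0.38 to 0.57), and 47.8% of all genes had a ratio of larger size. With total counts in place of TMM the log2 ratio of Perp was 0.59, which takes it just past 1.5-fold. At the other end, Ccng1 was 1.37-fold higher in replicate 2, with a log2 ratio of -0.45 (-0.48 to -0.42).

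Mdm2 followed Ccng1, at -0.36 (-0.42 to -0.31), and Aen had -0.33 (-0.41 to -0.25). Trp53 itself had -0.22 (-0.25 to -0.19) and Sesn1 -0.23 (-0.35 to -0.11). All 5 genes, Ccng1, Mdm2, Aen, Sesn1 and Trp53, were thus somewhat higher in replicate 2 after TMM scaling. With total counts they kept this direction, but the interval of Sesn1 then included equal levels. Per length of all exons, the ratio of Sesn1 to Trp53 was nearly the same in the libraries, at 0.071 and 0.0715. That of Aen to Trp53 was 0.112 and 0.122.

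Mdm4, Trp53inp1 and Phlda3 had log2 ratios of 0.00, 0.01 and 0.07, and their intervals all included equal levels after TMM scaling. Zmat3 had -0.06 (-0.10 to -0.01), which became 0.06 with total counts, so its direction rests on the scaling. The interval excluded equal levels for 7 of the 10 genes, 1 higher and 6 lower in replicate 1, where 37.8% and 35.4% of all genes tested were. This split rests on the scaling. With total counts, 5 members (Mdm4, Zmat3, Trp53inp1, Perp and Phlda3) were higher and 4 (Trp53, Mdm2, Ccng1 and Aen) lower, where 45.3% and 28.5% of all genes were. In either direction, the TMM-scaled intervals were apart from equal levels for 86.7% of genes at or above a mean count of 1000 and for 73.2% of all genes tested.

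**Figure D3:**
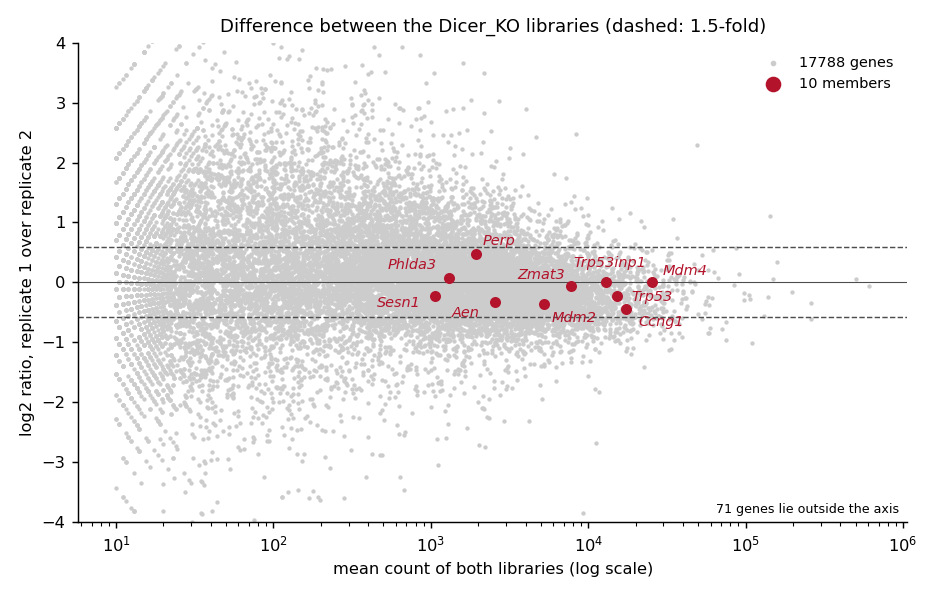
Log2 ratio of replicate 1 over replicate 2 (vertical axis) against the mean count (horizontal axis, log scale) for 17788 genes (grey) and the 10 members (red), with dashed lines at 1.5-fold. All 10 members lie between the dashed lines, from -0.45 for Ccng1 to 0.48 for Perp.

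The position of the genes was also considered. Genes on chromosome 15 differed between the libraries by 0.59 in the median log2 ratio, whereas the chromosomes that carry the members (1, 3, 4, 7, 10 and 11) had medians from -0.06 to 0.08. None of the 10 genes lies on chromosome 15. Less the median of its own chromosome, the log2 ratio of Perp was 0.47 and that of Ccng1 was -0.52. Mdm2, Sesn1 and Perp share chromosome 10 and had ratios of -0.36, -0.23 and 0.48, and Trp53 and Ccng1 share chromosome 11.

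A wider list of 28 p53 targets was set beside the members. Of these, 5 were beyond 1.5-fold higher in replicate 1, where 23.5% of all genes were, and 1 was beyond it in the other direction, where 16.1% of all genes were. Their median log2 ratio was 0.02, equal to that of all genes. Single genes of the list differed more than any of the 10 members.

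Cdkn1a, which encodes the cell cycle inhibitor p21 and is the best known p53 target, had 7961 counts in replicate 1 and 4198 in replicate 2, a 1.74-fold difference (log2 ratio 0.80, interval 0.75 to 0.86). Per length of all exons, Cdkn1a stood at 0.617 of Trp53 in replicate 1 and 0.305 in replicate 2. With the longest coding transcripts it stood at 0.487 and 0.24. Gdf15, a stress-induced cytokine, had 873 and 199 counts, with a log2 ratio of 2.01 (1.79 to 2.24). Both genes were higher in replicate 1, as was the member Perp, whereas Ccng1, Mdm2 and Aen were lower there. Of the 28 other targets, 15 were higher and 13 lower in replicate 1 after TMM scaling. With 2 libraries, no shared pattern between genes can be measured.

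Steap3, a metalloreductase of iron uptake, had 1808 and 531 counts (log2 ratio 1.64). Rrm2b, the ribonucleotide reductase subunit p53R2, had 2668 and 1296 counts (0.92), and it lies on chromosome 15, whose median was 0.59. The part of the chromosome in this ratio was not tested. Less that median, the ratio of Rrm2b was 0.33, and then 4 of the 28 targets were beyond 1.5-fold higher in replicate 1.

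Fdxr, a mitochondrial ferredoxin reductase, had 1209 and 699 counts (0.67). Pidd1, which activates caspase-2, went the other way, with 1018 counts in replicate 1 and 1735 in replicate 2 (-0.89). The most abundant of the other targets were Rps27l, a ribosomal protein variant, at 378 ± 33.6 TPM, Ei24 at 310 ± 10.9 TPM and Bax, the pore-forming apoptosis effector, at 280 ± 43.8 TPM (n = 2 each), and none of these was beyond 1.5-fold. Fas, the death receptor, had only 23 and 20 counts.

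Of 21 genes of the p53 family and its modifiers, 4 were beyond 1.5-fold higher and 4 lower in replicate 1, where 23.5% and 16.1% of all genes were, so that the counts are near the background. Their median log2 ratio was -0.19. Cdkn2a, whose transcripts encode p16 and the Mdm2 inhibitor Arf, had 847 and 283 counts (1.46, interval 1.26 to 1.66), and gene counts do not separate the 2 products. The p53-binding proteins Ppp1r13l (iASPP), with 711 and 342 counts, and Ppp1r13b (ASPP1), with 1712 and 1047, were higher in replicate 1, at 0.93 and 0.59, the latter just past the threshold. Trp63 had 0.85 from 46 and 23 counts.

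The genes lower in replicate 1 were Sirt1, a deacetylase that acts on p53, at -0.81, Trp53bp1, a factor of the DNA damage response, at -0.76, the kinase Atm at -0.66 and the acetyltransferase Crebbp at -0.60. With total counts 2 genes of this list were beyond 1.5-fold lower. Usp7, the deubiquitinase of Mdm2 and p53, was the most abundant of the list at 275 ± 58.1 TPM (n = 2), and had a log2 ratio of -0.50, followed by the checkpoint kinases Chek2 at 82.7 ± 9.51 TPM and Chek1 at 59.3 ± 10.3 TPM.

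**Figure D4:**
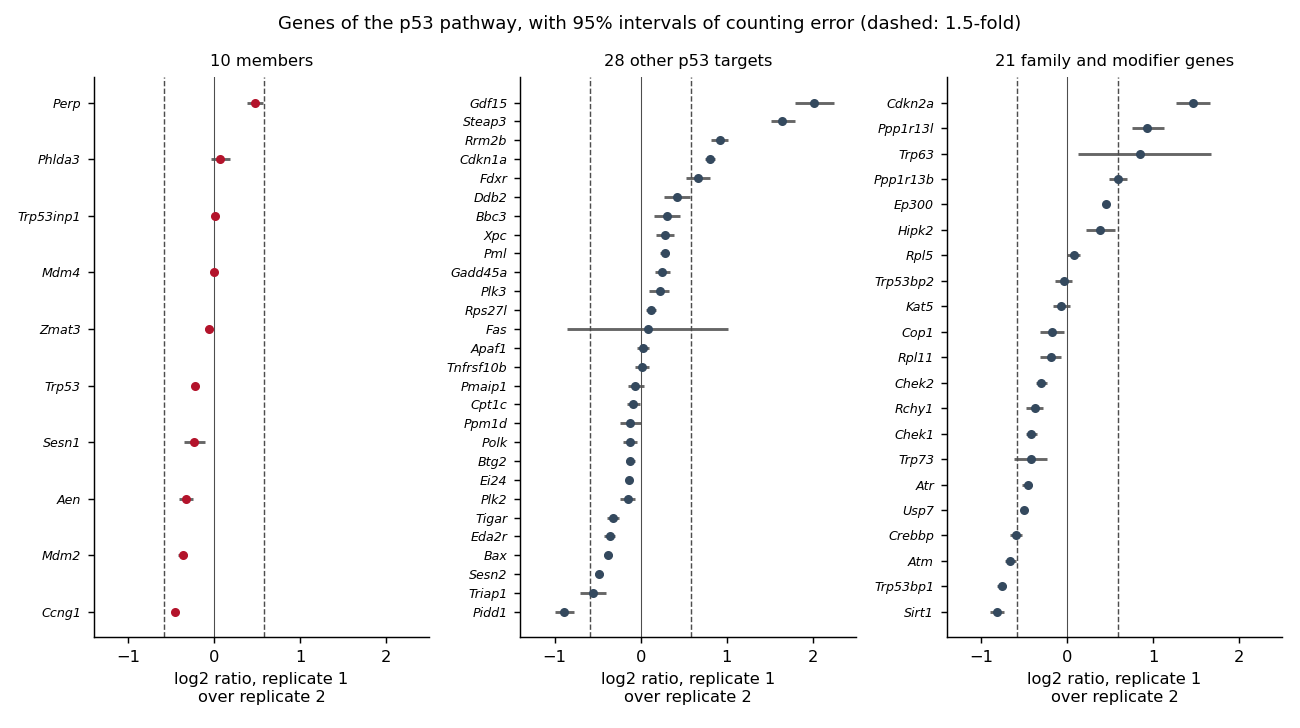
Log2 ratio of replicate 1 over replicate 2 (horizontal axis) with 95% intervals of counting error for the 10 members, 28 other p53 targets and 21 family and modifier genes, with dashed lines at 1.5-fold. The members span -0.45 to 0.48, the other targets -0.89 (Pidd1) to 2.01 (Gdf15), and the modifiers -0.81 (Sirt1) to 1.46 (Cdkn2a).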

How the data were processed

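PolyA RNA of 2 Dicer_KO libraries was sequenced with a reverse-stranded protocol per the labels. Per the study's methods and processing notes, the authors used Trimmomatic for trimming, STAR (2.4.2a) for alignment to mm10 and featureCounts (1.4.5-p1) for counting on the Ensembl annotation, where reads falling in overlaps of genes were ignored. Raw counts per gene were deposited. The strand setting of the counting and its treatment of reads with several alignments are not given in the sources used here, so that genes with near-identical copies, such as Rpl5 and Rpl11, are uncertain.

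CPM was taken over total counts and TPM over the union of exons in GENCODE M21. Of the 43629 listed genes, 42462 matched this annotation, which is not the one used for counting. The lengths and gene overlaps given here may therefore differ from those behind the counts. Replicate 2 was scaled to replicate 1 by a TMM factor of 1.09 (edgeR 4.0.16, R 4.3.3). Ratios used a pseudocount of 1 and a minimum mean count of 10, and their steps were tested on simulated data. In the simulated data few genes changed, equally many in each direction. They therefore cannot check the scaling of libraries that differ as widely as these. Intervals came from scipy 1.17.1. The alternatives were DESeq2 (1.42.0) size factors, total or raw counts, a pseudocount of 0.1, other count minimums, a 2-fold threshold, other lengths and leaving out each library. The 10 genes and the lists were chosen with earlier results of these data known. Beside the members, Dicer1 and the markers, genes of the other lists were named if past 1.5-fold with a mean count of 100 or more, among the 3 highest by TPM, or at 10 counts or fewer in both libraries. Sesn2, Fas, Trp63, Trp73, Trp53-ps, Mdm4-ps, Gm29257 and Wrap53 were named after their values were seen. The libraries may be of separate lines, but nothing in the labels says how they relate, and no p-value was computed.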

Additional observations from a re-analysis of the deposited data

How the results depend on the processing

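No paired analysis was possible because a second group to pair with was not analysed here. Scaling, threshold and gene length each moved some values, whereas with DESeq2 size factors the median of the members was -0.13 and none of them was beyond 1.5-fold. With total or raw counts in place of TMM, the median of all genes moved from 0.02 to 0.14 and that of the 10 members from -0.14 to -0.02, the median of the other targets from 0.02 to 0.14 and that of the family and modifier genes from -0.19 to -0.08 and -0.07. Under both, 1 member (Perp) instead of 0 was beyond 1.5-fold higher in replicate 1, and 2 instead of 4 modifiers were beyond it lower. A 2-fold threshold left 2 and 0 of the other targets, 1 and 0 of the modifiers, and 2533 and 1270 of all genes higher and lower. Without a filter 7196 and 6023 of all genes were beyond 1.5-fold, and at a minimum mean count of 100 there were 2415 and 1679, against 4180 and 2865. The moves with the filter and the threshold follow from how many genes enter and where the threshold stands. Those with total or raw counts follow from the scale between the libraries.

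The median level of the 10 members was 72.3 TPM and 157 CPM. The level of single members moved more with the length, Mdm4 from 123 to 209 and Trp53 from 269 to 270 TPM over the longest transcripts, and to 197 and 448 over the longest coding ones. The median was 77.9 TPM over the longest transcripts, 73.7 over the longest coding transcripts, which were added after seeing the data, and 164 CPM over TMM-scaled totals. Leaving out each library gave 69.7 to 74.9 TPM and 154 to 161 CPM. The interval counts under other scalings were also added after seeing the data. Subtracting the chromosome median, also added later, kept the number of members beyond 1.5-fold at 0. With 2 libraries, leaving one out shows no stability.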
